A study of Drosophila melanogaster with 9 samples.

Results

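Hub bins are 10 kb stretches of the genome that were listed as interacting with an unusually large number of other stretches of the same chromosome arm in heat-shocked Drosophila melanogaster cells. A bin was counted as a hub when it was paired with 50 or more different bins in the heat-shock list of Hi-C interactions. There were 320 hubs among the 11120 bins used in either of the deposited lists, or 2.88% of them, and 2.95% of the 10846 bins used in the heat-shock list. The hubs were chosen by their number of heat-shock partners, so that number and everything counted from the same pairs is given as a description. The companion list was not used to choose them.

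In Hi-C, chromatin is fixed, cut and re-ligated, so that fragments that were close in the nucleus are joined and sequenced as a pair. Most pairs join neighbouring stretches, and a stretch that is paired with many distant ones is often called a hub. In the fly genome, insulator proteins, Polycomb-bound regions and the heterochromatin next to the centromeres are known sites of long-range contact. Heat shock is known to shut down transcription of most genes and to switch on the heat shock genes.

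The series holds 9 samples of Kc167, an established female embryonic line, and the hubs come from 2 of them. These are the Hi-C libraries of heat-shocked cells, which were grown at 25 °C, held at 37 °C for 20 min, fixed with formaldehyde and cut with HindIII. Their labels name one list, which covers both libraries together. A second list, called the companion list here, is tied by no label used here to a sample, a treatment or a number of libraries. The 7 other samples, of which 6 are heat-shocked ChIP or input libraries and 1 is an RNA polymerase II ChIP library of normal culture, were not analysed here.

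The heat-shock list held 59303 pairs and the companion list 33978 pairs, a ratio of 1.75. Both lists cover arms 2L, 2R, 3L, 3R and X. Each pair lies within an arm, its bins are at least 0.02 Mb apart, so that adjacent bins are never paired, and its score is -2 or below. They carry no read counts, so depth is unknown. A missing pair is only known not to have passed that limit. Each list is single, so there was no spread between replicates to set a difference against, and no test was run. Intervals are 95% intervals that cover counting error only and treat bins or pairs as independent, which neighbouring ones are not. The lists describe populations of cells, and how many of its partners a hub meets in a single cell cannot be read from them. Coordinates are given as in the lists, starting from 1. No source used here names the genome build, so bins could not be matched to genes.

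The hubs ranged from 50 to 367 heat-shock partners, with a median of 77 and quartiles of 60.8 and 114. The other 10800 bins had a median of 6. There were 111 hubs with 100 or more partners, 39 with 150 or more, 11 with 200 or more and 2 with 300 or more. Though hubs made up under 3% of the bins, 29255 heat-shock pairs, or 49.3% (48.9 to 49.7%), had a hub at 1 or both ends. Their pairs reached 76.6% of the other bins. At the threshold, 15 hubs had exactly 50 partners and 11 bins had 49. The companion partners of the 15 ranged from 6 to 61 with a median of 37, and those of the 11 from 2 to 36 with a median of 29. The bins on either side of the threshold therefore overlapped in their companion numbers.

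The hubs lay on all 5 arms, with 66 on 2L, 71 on 2R, 55 on 3L, 84 on 3R and 44 on X. As a share of the used bins of each arm they ranged from 2.21% (1.61 to 2.96%) on X to 3.57% (2.80 to 4.49%) on 2R. The high share on 2R came from its centromere end. The centromere lies at the low end of the coordinates on 2R and 3R and at the high end on 2L, 3L and X. In the first 2 Mb of 2R, 30 of 196 used bins were hubs (15.3%, 10.6 to 21.1%), against 41 of 1791 (2.29%, 1.65 to 3.09%) on the rest of the arm. Over all arms, 34 hubs lay within 1 Mb of the centromere end, 10.6% of the hubs against 4.15% of the used bins. Of these, 24 were on 2R, 6 on 3L, 3 on 2L, 1 on 3R and none on X. Within 1 Mb of the telomere end there were 13 hubs, 4.06% of the hubs against 4.16% of the used bins. The arms with most hubs of 100 or more partners were 3R, with 43, and 2R, with 21.

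**Figure D1:**
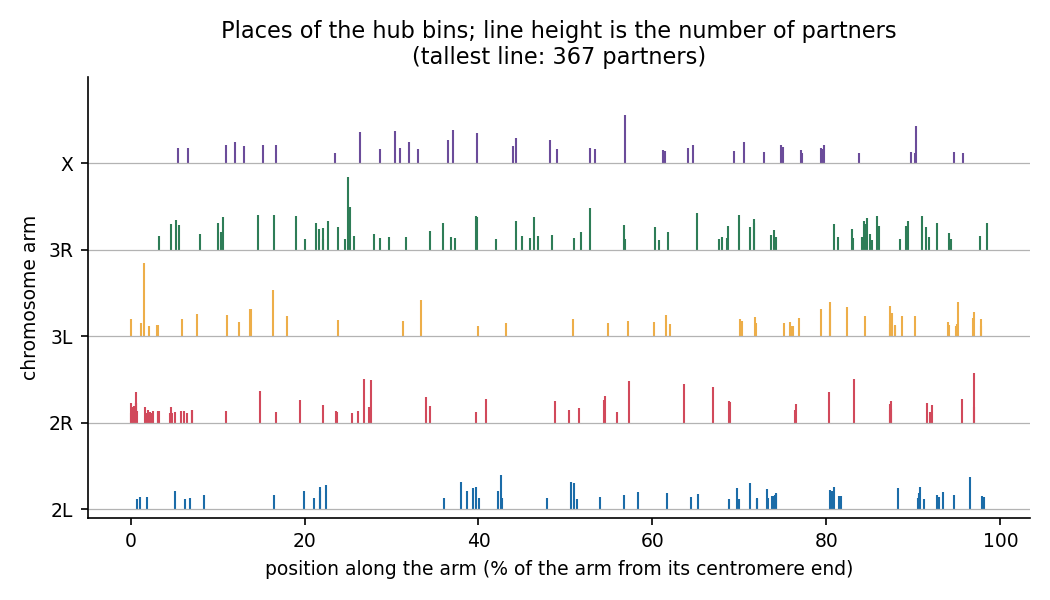
Each vertical line is 1 of the 320 hub bins, placed by its position along the arm in percent from the centromere end, and its height is the number of heat-shock partners (tallest line 367). The dense group at the left of 2R holds 30 hubs, and the tallest lines are on 3L near the centromere end (367 partners) and on 3R (363).

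Spacing between consecutive hubs was uneven. The median was 210 kb (150 to 250 kb), with quartiles of 55 and 535 kb and a longest gap of 3100 kb on 2L. The median was shortest on 2R, at 90 kb, and longest on X, at 400 kb. Directly adjacent bins accounted for 26 of the 315 spacings (8.25%), 79 (25.1%) were at most 50 kb and 21 (6.67%) exceeded 1000 kb. With hubs at most 50 kb apart joined, 195 hubs stood alone, 34 groups had 2 hubs and 12 runs had 3 or more. The runs held 57 hubs, of which 28 were on 2R, 15 on 2L, 9 on 3L and 5 on 3R. No run lay on X.

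The longest run, 2R:10001-180000, held 11 hubs with 50 to 151 heat-shock and 37 to 100 companion partners. It was followed on the same arm by 7 hubs at 2R:350001-570000, with 50 to 78 heat-shock and 29 to 66 companion partners, and by runs of 3 hubs each at 2R:670001-700000 and 2R:970001-1020000. Away from the centromere, the run with most hubs was 2L:5960001-6090000, with 8. There were 5 hubs at 3R:23470001-23620000, 4 at 2L:2160001-2220000 and 4 at 2R:18450001-18490000, where all 4 bins in a row were hubs. The remaining runs of 3 hubs were at 2L:4440001-4540000, 3L:1290001-1350000, 3L:3150001-3220000 and 3L:5930001-6030000.

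Non-hub bins directly beside hubs had the same median number of partners as bins anywhere, but more of them had none. There were 43 hubs with a hub in an adjacent bin (13.4%). The other adjacent bins had under 50 partners by definition. These non-hub bins had a median of 5 heat-shock partners (4 to 5, n = 561), the same as the median over all 11882 bins that the arms span between their first and last used bin (5, interval 5 to 6). No heat-shock partner at all was listed for 114 of the 561 (20.3%, 17.1 to 23.9%), against 8.72% of the 11882. At a distance of 2 bins from a hub and next to none, the figure was 5.35% (3.55 to 7.68%, n = 505) and the median was 7 (6 to 8). The companion list, which took no part in choosing the hubs, had the same order. There, 31.2% (27.4 to 35.2%) of the bins next to a hub had no partner, against 13.5% (10.6 to 16.8%) at 2 bins and 16.7% over the arms. Outside the first 2 Mb of 2R the companion figure next to a hub was 33.0% (29.0 to 37.1%). In all, 156 hubs (48.8%) had under 10 heat-shock partners in each of their adjacent bins, and the share over all bins was not counted. Over all bins of the arms the upper quartile was 11 partners, so numbers under 10 were common anywhere. The rich bin X:9680001-9690000, with 239 partners, had none in either neighbour. Within 1 Mb of the centromere end the adjacent non-hub bins had a median of 14.5 partners, against 4 elsewhere.

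**Figure D2:**
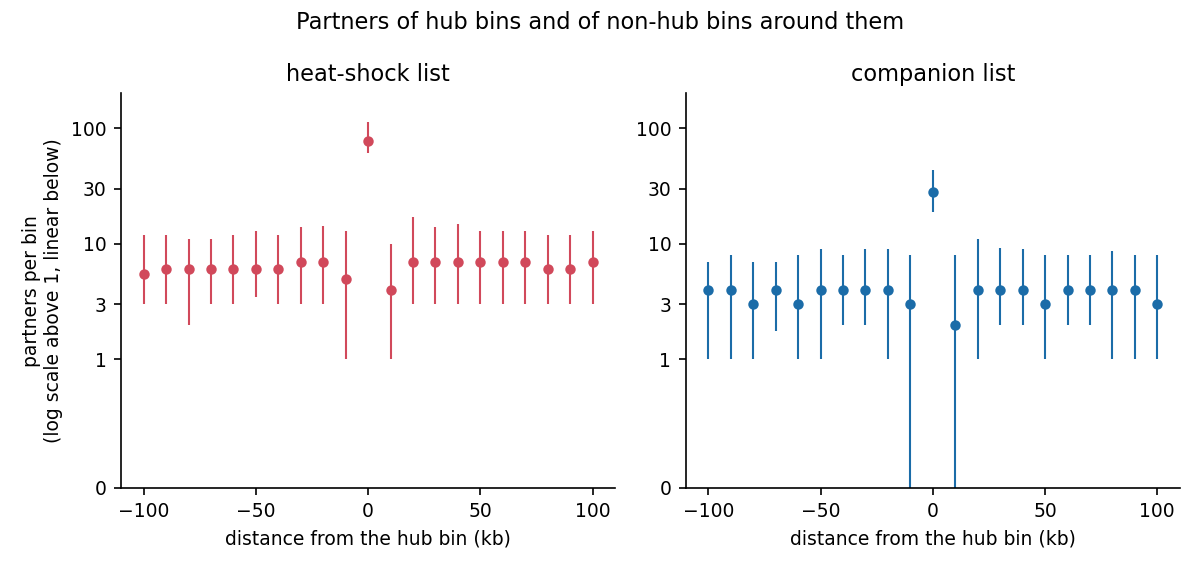
Partners per bin (y axis, log scale above 1) against distance from the hub bin in kb (x axis), as medians with bars from the lower to the upper quartile, in the heat-shock list (left) and the companion list (right). The point at 0 is the 320 hubs, with medians of 77 and 28, and the others are non-hub bins, whose heat-shock medians are 5 and 4 directly beside the hub and 5.5 to 7 further out.

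In the companion list the same bins were also rich in partners. All 320 hubs had companion partners, from 4 to 295, with a median of 28 (25 to 31), against a median of 3 for the other bins. All were above the companion median over used bins of 3, a level that 48.8% of all used bins exceeded. There were 55 hubs with 50 or more companion partners (17.2%, 13.2 to 21.8%), against 0.585% of all used bins. These 55 were 84.6% of the 65 companion bins at that level. Of the 320 richest companion bins, a set that is 2.88% of the used bins, 153 were hubs, which is 47.8% of either set. The poorest bin of that set had 29 companion partners. With other settings the hubs were set against as many of the richest companion bins, so that set shrank with the number of hubs. The share of hubs in it was 28.8% (20.6 to 38.2%) for the 111 hubs with 100 or more partners. It was 32.5% (25.6 to 40.2%) with only the strongest 50% of heat-shock pairs and 27.0% (20.3 to 34.6%) for pairs over 1 Mb apart. A smaller set is harder to enter, so these shares do not compare directly with 47.8%. The hubs with 100 or more partners had a median of 28 companion partners (24 to 35), the same median as all hubs.

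More heat-shock than companion partners were listed for 309 hubs (96.6%), against 70.8% of all used bins. At least 2 times as many were listed for 229 hubs (71.6%), against 48.2% of all used bins, and at least 5 times as many for 86 (26.9%), against 18.7%. Hubs were chosen for a high heat-shock number, and these shares say nothing further about them. The median ratio over hubs was 3.21 (2.84 to 3.5). Among the hubs the partner numbers of the lists had a Spearman rho of 0.10 over 320 bins that share 2 lists. The choice of hubs cuts the range of the heat-shock number, which can lower this rho, and the rho over all bins was not counted.

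The hubs with fewest companion partners included 3R:17240001-17250000, with 4 against 89 in the heat-shock list, and 3R:11730001-11740000, with 5 against 56. On X, bin X:8060001-8070000 had 5 against 74. Bins 2L:2050001-2060000 and 2L:11200001-11210000 each had 6 against 50. The largest ratio was at 3L:16370001-16380000, with 8 companion and 181 heat-shock partners. Its heat-shock partners lay on both sides, with 53.6% at higher coordinates, at a median distance of 1.74 Mb.

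Other hubs had similar numbers in both lists, above all near the centromere ends of 2R and 3L. The 5 hubs with most companion partners were 3L:24160001-24170000, with 295 against 367 in the heat-shock list, 2L:17980001-17990000, with 103 against 113, 2R:140001-150000, with 100 against 151, 2R:10001-20000, with 81 against 98, and 2R:90001-100000, with 81 in each. The median ratio was 1.35 (1.16 to 1.51) for the 34 hubs within 1 Mb of the centromere end and 3.5 (3.19 to 3.83) for the other 286. Of the 34, 24 were on 2R. On 2L, bins 2L:22550001-22560000 and 2L:22730001-22740000 had ratios of 2.95 and 3.21, and 2L:22810001-22820000 had 1.06. Fewer heat-shock than companion partners were listed for 8 hubs. Of these, 5 lay on 2L between 5990001 and 8220000, and 3 in the first 2 Mb of 2R.

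**Figure D3:**
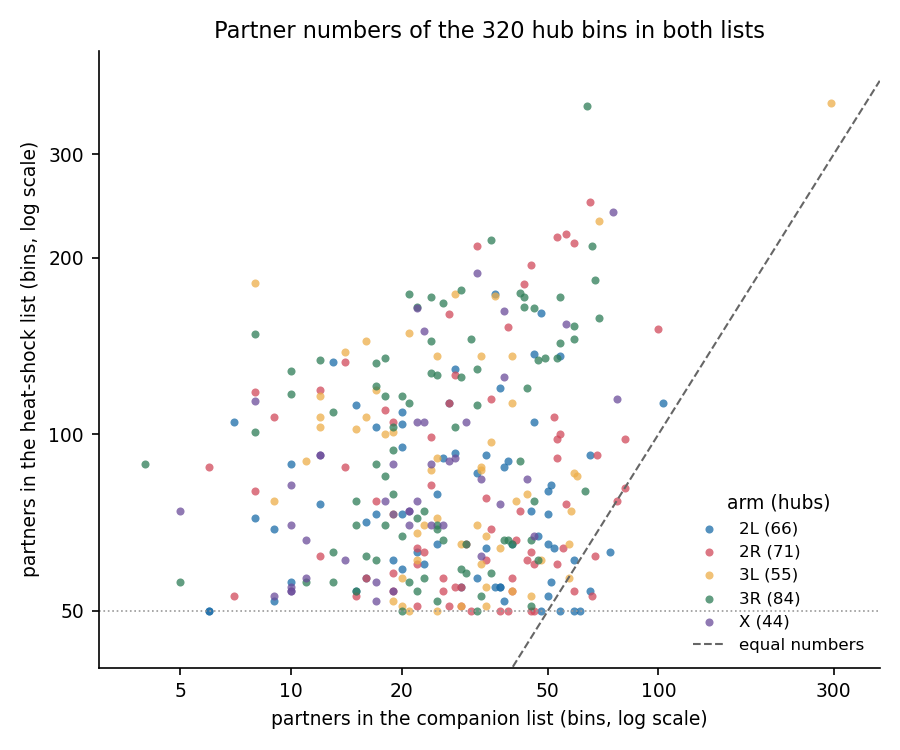
Each point is 1 of the 320 hub bins, coloured by arm, with its number of companion partners (x axis, log scale) and of heat-shock partners (y axis, log scale). The dashed line marks equal numbers and the dotted line the threshold of 50. Most points lie above the dashed line, 8 lie below it, and the point at 295 and 367 is the 3L bin with most partners in both lists.

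Hubs that lay in runs and hubs that stood alone differed in these numbers. The 57 hubs in runs had a median of 45 companion partners (35 to 50) and a ratio of 1.61 (1.36 to 2.06). The 195 lone hubs had a median of 24 (22 to 26) and a ratio of 3.59 (3.35 to 4.14). Outside the first 2 Mb of 2R, the 33 hubs in runs had a median of 36 (25 to 50) and a ratio of 2.38 (1.61 to 2.88). At least 50 companion partners were listed for 23 of the 57 hubs in runs (40.4%, 27.6 to 54.2%) and 21 of the 195 lone hubs (10.8%, 6.79 to 16.0%). No test across samples was possible for this difference.

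Hub pairs were compared with those of the other list. Of the companion pairs that touched a hub, 58.8% (57.8 to 59.8%) were heat-shock pairs too, against 21.2% (20.7 to 21.7%) of companion pairs that touched none. Hubs have many more heat-shock pairs to match, which by construction raises the first share. Of the heat-shock pairs that touched a hub, 19.9% (19.5 to 20.4%) were companion pairs, against 17.0% (16.6 to 17.4%) of those that touched none. Without the 1 Mb at the centromere ends these shares were 17.1% (16.7 to 17.6%) and 15.4% (14.9 to 15.8%). Only 9921 companion pairs touched a hub, against 29255 heat-shock pairs, which limits the share for hubs. Pairs that touched none numbered 24057 and 30048, so their share was less limited. Hub by hub, the share of heat-shock partners repeated had a median of 17.1% and ran from 1.12% to 79.2%. It was 50% or more for 30 hubs (9.38%), and the same share over all bins was not counted. The median was 51.3% (45.1 to 59.6%) within 1 Mb of the centromere end and 15.8% (14.3 to 17.3%) elsewhere. Of the 34 hubs near the centromere end, 24 were on 2R. Few companion partners for a given heat-shock number limit this share, so it follows in part from the ratio of the partner numbers. The share of companion partners that were also heat-shock partners had medians of 72.1% (60 to 80.65%) and 59.0% (55.6 to 62.5%).

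Hub pairs tended to be strong, but not at the very top of the heat-shock list. A hub was part of 76.0% (74.9 to 77.1%) of the strongest 10% of heat-shock pairs by the authors' score and 25.8% (24.7 to 26.9%) of the weakest 10%. Over all heat-shock pairs the share was 49.3%. Hubs were part of 45.2% (43.5 to 46.8%) of the strongest 10% of companion pairs and 16.4% (15.2 to 17.7%) of the weakest 10%. Over all companion pairs the share was 29.2% (28.7 to 29.7%). Among the very strongest pairs the share was smaller, with 47 of the 100 strongest heat-shock pairs touching a hub, no more than over all heat-shock pairs.

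Partners of hubs lay at megabase distances, but few were very distant. The median distance of heat-shock pairs that touched a hub was 1.40 Mb (1.37 to 1.42 Mb), against 1.97 Mb (1.93 to 2.02 Mb) for pairs that touched none. Of the hub pairs 9.88% (9.54 to 10.2%) spanned over 5 Mb, against 23.5% (23.0 to 24.0%) of the pairs without a hub, while 52.3% against 43.5% spanned over 1 and up to 5 Mb. Companion pairs that touched a hub had a median of 0.92 Mb (0.90 to 0.94 Mb) against 1.37 Mb (1.33 to 1.41 Mb), and 11.1% against 19.6% were over 5 Mb apart. Hub by hub, the companion partners had the longer median distance at 33 of the 320 (10.3%). Pairs without a hub were also shorter in the companion list, and the same share over all bins was not counted.

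Density shows how much of the arm a hub reached. Of the used bins that lay over 0.5 and up to 1 Mb from a hub, 21.4% were its heat-shock partners. The figure was 13.9% over 1 to 2 Mb, 7.96% over 2 to 3 Mb, 4.36% over 3 to 5 Mb and 1.27% over 5 to 10 Mb. Around the other bins these densities were 1.52%, 0.922%, 0.597%, 0.373% and 0.175%. Companion densities were 10.4%, 3.40%, 1.81%, 0.949% and 0.364% around hubs, and around the other bins 1.09%, 0.485%, 0.308%, 0.188% and 0.0968%. The companion density of hubs was 9.53 times that of other bins over 0.5 to 1 Mb, and 3.42 times beyond 10 Mb. In each of the 9 distance bands hubs were above other bins in both lists. Beyond 10 Mb the hubs had 527 heat-shock and 421 companion partners, and 1 bin supplied a large part. Bin 3L:24160001-24170000 had 367 and 295 partners, at median distances of 13.56 and 12.86 Mb. The densities without this bin were not counted.

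**Figure D4:**
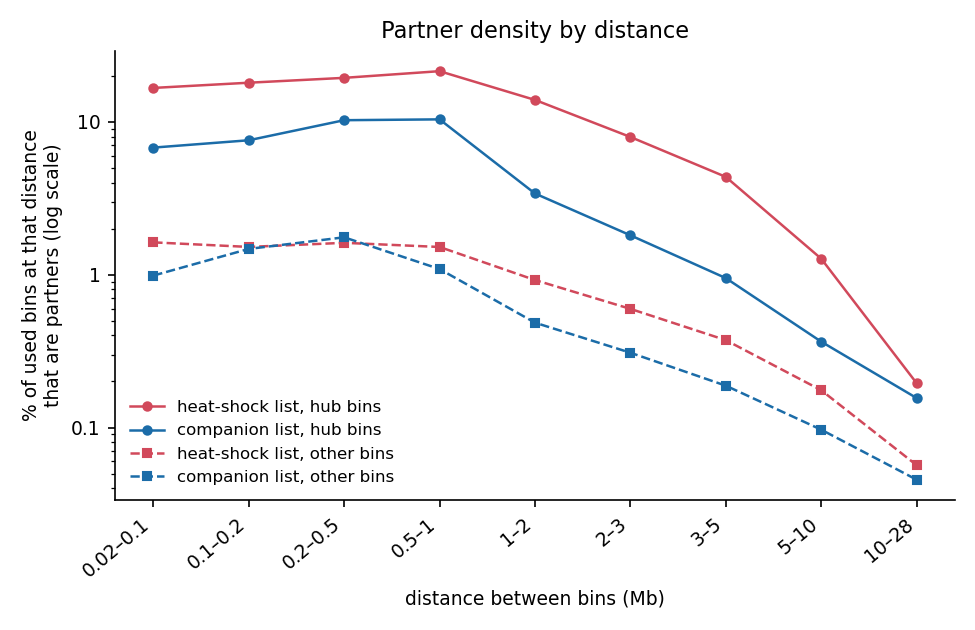
The share of used bins at a given distance that are partners (y axis, percent, log scale) against distance between bins in Mb (x axis), for hub bins (solid lines) and other bins (dashed lines) in both lists. Hub density peaks over 0.5 to 1 Mb, at 21.4% for heat-shock and 10.4% for companion pairs, and falls to 0.195% and 0.156% beyond 10 Mb.

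Individual hubs departed from this pattern. The median partner distance of a hub ranged from 0.29 to 13.56 Mb, with a median over hubs of 1.39 Mb and an interval of 1.25 to 1.495 Mb. Only 6 hubs had a median over 5 Mb. The bin with the longest, 3L:24160001-24170000, lies 0.37 Mb short of the centromere end of 3L. It had no heat-shock partner within 1 Mb and 347 of its 367 partners over 5 Mb away, where 19.1% of the used bins were its partners. The shortest stretch that held 50% of its partners was 8.37 Mb long, at 3L:3230001-11600000, so they were spread over the far part of the arm. Of its 295 companion partners 270 were over 5 Mb away, and 47.1% of its companion partners were also heat-shock partners.

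The next 4 by distance were the adjacent bins of the run at 2R:18450001-18490000, with medians of 6.71 to 6.86 Mb. Bin 2L:10610001-10620000 followed, with 5.25 Mb. The shortest medians were 0.29 Mb at 2L:21040001-21050000, 0.31 Mb at X:970001-980000, 0.335 Mb at 3R:26300001-26310000, 0.43 Mb at X:17160001-17170000 and 0.51 Mb at X:1200001-1210000.

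Several of the richest hubs away from the centromere ends reached about evenly to both sides. Bin 3R:6970001-6980000 had 363 partners, 47.4% of them at higher coordinates. Within 1 Mb it was paired with 59.8% of the used bins on its lower side and 30.5% on its higher side. Over 3 to 5 Mb away it was still paired with 26.8% and 29.4%. Its 64 companion partners had a median distance of 0.95 Mb, against 2.67 Mb in the heat-shock list, and 68.8% of them were heat-shock partners as well. Bin 3R:7050001-7060000, 80 kb away, had 214 partners, 49.1% of them at higher coordinates. The 2R hubs at 5670001-5680000, 17580001-17590000 and 5850001-5860000, with 219, 217 and 212 partners, had 44.7%, 50.7% and 51.4% at higher coordinates and median distances of 2.14, 2.03 and 2.02 Mb. Bin 2R:20500001-20510000, with 249 partners, lies near the telomere end and had 71.2% of the used bins within 1 Mb on its telomere side among its partners. Bin 3L:20530001-20540000, with 231 partners, had 56.3% of them towards the centromere end, where only 16.5% of the used bins of its arm lie. Bins 2R:12110001-12120000, with 209 partners, and X:9680001-9690000 leaned to higher coordinates, with 67.9% and 73.2%.

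Over all hubs neither direction prevailed. The share of partners towards the centromere end had a median of 49.6% (48.3 to 52.6%), and 157 of 320 hubs had most of their partners there. Single hubs could lean strongly, and 105 (32.8%, 27.7 to 38.2%) had at least 75% of their partners on one side. Among the 953 bins with 20 to 49 heat-shock partners the same was true of 46.2%, a group in which fewer partners give a more variable share. Of the 111 hubs with 100 or more partners, 17 leaned that far (15.3%, 9.18 to 23.4%). Of the 105, 76 leaned towards the longer part of their arm, and 52 faced the centromere end. Among the 159 hubs at least 5 Mb from both ends, 33 (20.8%, 14.7 to 27.9%) leaned that far, 20 of them towards the longer part of the arm.

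The side was the same in the companion list for 99 of the 101 leaning hubs with 10 or more companion partners, and for 30 of 31 of those at least 5 Mb from both ends. The same was not counted for leaning bins that are not hubs, so it is not known to be particular to hubs. Over the 300 hubs with 10 or more companion partners, the share at higher coordinates had a Spearman rho of 0.87 between the lists and the median partner distance a rho of 0.73. These hubs share their places on the arm in both lists, and an arm end limits both shares alike. At the arm ends the lean is fixed by position. Bins 2R:10001-20000, 2R:20001-30000 and 2R:40001-50000 had all of their 98, 50 and 64 partners at higher coordinates, and 3L:24530001-24540000, the last bin of its arm, had all 86 at lower ones. Position does not fix it at 2L:2190001-2200000, where none of 80 partners lay at higher coordinates although 90.7% of the used bins of 2L did. None of its 50 companion partners did either.

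A group of hubs had at least 50% of their partners in 1 short, distant stretch. For each hub the shortest stretch holding 50% of its partners was found. Its median length was 1.91 Mb with quartiles of 1.04 and 2.82 Mb, and the shortest was 0.33 Mb, at 2L:2210001-2220000, 2R:1380001-1390000 and 3R:26300001-26310000. In 21 hubs the stretch was at most 1 Mb long and its centre over 1 Mb from the hub, a definition chosen after the values were seen. The 4 hubs at 2R:18450001-18490000 had stretches of 0.35 to 0.56 Mb that lay between 11400001 and 11960000 of 2R, 6.75 to 6.80 Mb away from centre to hub. Of their partners, 1.45% to 6.59% lay on the other side. Their companion numbers were 53, 41, 35 and 52, and their companion medians were 6.71 to 6.80 Mb.

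On 2L, bins 17980001-17990000 and 17990001-18000000 had stretches from 21570001 to 22140000 and to 22120000. The first of them was paired with 65 bins in an unbroken row, the longest row of any hub. Its stretch held 57 of its 113 partners, and 82.5% of its 103 companion partners were heat-shock partners. In the run at 2L:5960001-6090000, bins 5960001-5970000 and 5970001-5980000 had stretches at 8780001-9180000 and 8730001-9270000, and bin 6010001-6020000 at 8490001-9130000. The view from the other side was alike, as 2L:8830001-8840000, with 82 partners, had its stretch at 5840001-6470000. On 3L, the 3 hubs of the run at 5930001-6030000 had stretches that all began at 3450001, of 0.39 to 0.53 Mb. Their companion partners were less gathered, with stretches of 2.58, 1.4 and 2.53 Mb for 19, 21 and 25 partners. Of these companion partners 52.6%, 33.3% and 44% lay at higher coordinates, against 19.2%, 22% and 18.1% of the heat-shock partners. Of the rest, 6 lay in the first 2 Mb of 2R and faced another part of that region, 1 was 3L:24240001-24250000 and 1 was 2L:18150001-18160000.

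Hubs were paired with one another in 903 heat-shock pairs, 3.09% (2.89 to 3.29%) of the pairs that touched a hub. These were 8.58% (8.05 to 9.13%) of the 10521 possible pairs of non-adjacent hubs on the same arm. Of the possible pairs between a hub and another bin 4.05% were listed, and of those between 2 other bins 0.255%. This order follows in part from the choice of hubs by their number of pairs. The companion shares were 4.02% (3.65 to 4.41%), 1.36% (1.33 to 1.38%) and 0.204% (0.201 to 0.207%). Of the 903 pairs, 355 (39.3%, 36.1 to 42.6%) were also companion pairs, against 19.3% (18.9 to 19.8%) of heat-shock pairs between a hub and another bin. In 294 of the 903 (32.6%) both bins lay in the first 2 Mb of 2R. The repeated share without these was not counted, so 39.3% may not hold for hub pairs elsewhere. The median score was -3.41 for pairs between hubs, -2.985 for pairs with 1 hub and -2.37 for pairs with none.

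The centromere end of 2R supplied a large part of these pairs. Of the 426 possible pairs of non-adjacent hubs there, 294 were heat-shock pairs (69.0%, 64.4 to 73.4%) and 221 companion pairs (51.9%, 47.0 to 56.7%). With the hubs in the first 2 Mb of 2R left out, 593 of 8865 possible pairs were heat-shock pairs (6.69%, 6.18 to 7.23%) and 197 companion pairs (2.22%, 1.93 to 2.55%). By arm, the heat-shock share was 15.5% on 2R, 12.5% on 3L, 7.07% on 2L, 4.57% on 3R and 2.75% on X. The companion shares were 9.91%, 4.32%, 3.09%, 1.18% and 0.74%. The first position of 2R rested on its first 2 Mb. The rest of 2R had 72 of 816 possible pairs in the heat-shock list (8.82%, 6.97 to 10.98%), below 3L, and 19 of 816 in the companion list (2.33%, 1.41 to 3.61%), below 3L and 2L. A hub had a median of 3 hub partners (3 to 4) and at most 27. There were 64 hubs without any, 22 of them on X, 19 on 3R, 10 on 2L, 9 on 3L and 4 on 2R. At least 1 hub partner was listed for 256 of the 320 hubs (80%), close to the 8267 of 10800 other bins (76.6%).

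Pairing between hubs varied with distance. Of the hub pairs over 0.2 and up to 1 Mb apart, 39.7% (36.4 to 43.0%) were heat-shock pairs and 28.3% (25.3 to 31.4%) companion pairs. These companion pairs numbered 246, more than the 197 at all distances without the hubs in the first 2 Mb of 2R. That region therefore weighs on this band, and the shares by distance were not counted without it. At up to 0.2 Mb the shares were only 11.8% (8.29 to 16.0%) and 3.81% (1.91 to 6.71%). Over 1 to 5 Mb they were 14.4% (13.2 to 15.8%) and 4.67% (3.94 to 5.50%), and beyond 5 Mb 1.61% and 0.465%. In both lists hubs up to 0.2 Mb apart were thus paired less often than hubs over 0.2 and up to 1 Mb apart. As described next, they had many partners in common. Their shares were not low beside those over all possible hub pairs, 8.58% and 4.02%.

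Of the pairs between hubs the strongest, with a heat-shock score of -28.1 and a companion score of -39.1, had its bins 3.57 Mb apart at 2L:17980001-17990000 and 2L:21550001-21560000. They had 35 partners in common. The bin 2L:1260001-1270000 took part in 3 of the 5 strongest, with 2L:2210001-2220000 at a score of -22.2, with 2L:2200001-2210000 at -19.3 and with 2L:2190001-2200000 at -18.0. All 3 were in the companion list, at -33.3, -40.7 and -25.0. The remaining one joined 2R:11820001-11830000 to 2R:18450001-18460000, 6.63 Mb apart, and scored -18.5 and -12.0. The 5 longest pairs between hubs all had 3L:24160001-24170000 at one end. They joined it to 3L:1340001-1350000 (22.82 Mb), 3L:1540001-1550000 (22.62 Mb), 3L:1570001-1580000 (22.59 Mb), 3L:5930001-5940000 (18.23 Mb) and 3L:6020001-6030000 (18.14 Mb). Their heat-shock scores ran from -8.09 to -2.25, and 3 of the 5 were companion pairs.

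Neighbouring hubs shared partners. For the 157 consecutive hubs at most 200 kb apart, the partners in common made up a median of 43.4% (38.5 to 47.5%) of the smaller partner set and 28.2% of the larger. For consecutive hubs further apart they made up 25.5% (22.9 to 28.9%) of the smaller and 15.5% of the larger. The median share of the smaller set was 66.5% (60 to 72.5%) for the 26 directly adjacent hubs, 52.7% (43.4 to 66.7%) for the 25 that lay 20 kb apart and 35.0% (31.5 to 41.8%) for the 106 that lay 30 to 200 kb apart. In 61 of the 157 pairs at least 50% of the smaller set was shared. Of the 131 neighbours at least 20 kb apart, which could be listed as a pair, 11 were (8.40%, 4.27 to 14.5%).

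Sharing fell with distance over all hub pairs of an arm. It had a median of 58.4% of the smaller set up to 50 kb, 42.5% over 50 to 200 kb, 30.8% over 200 to 1000 kb and 10.9% over 1 to 5 Mb, and beyond 5 Mb 53.6% of the hub pairs had no partner in common. The same hubs shared 52.8%, 30.2%, 18.2% and 0% of the smaller companion set in these bands. Distance alone allows nearby bins more common partners, since most partners of a hub lie within a few Mb. In the first 2 Mb of 2R the median for neighbouring hubs was 70.7% (64.8 to 74.5%) for heat-shock and 71.9% (52.7 to 77.5%) for companion partners. Elsewhere it was 38.5% (34 to 42.9%) and 26.3% (19.4 to 34.6%).

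**Figure D5:**
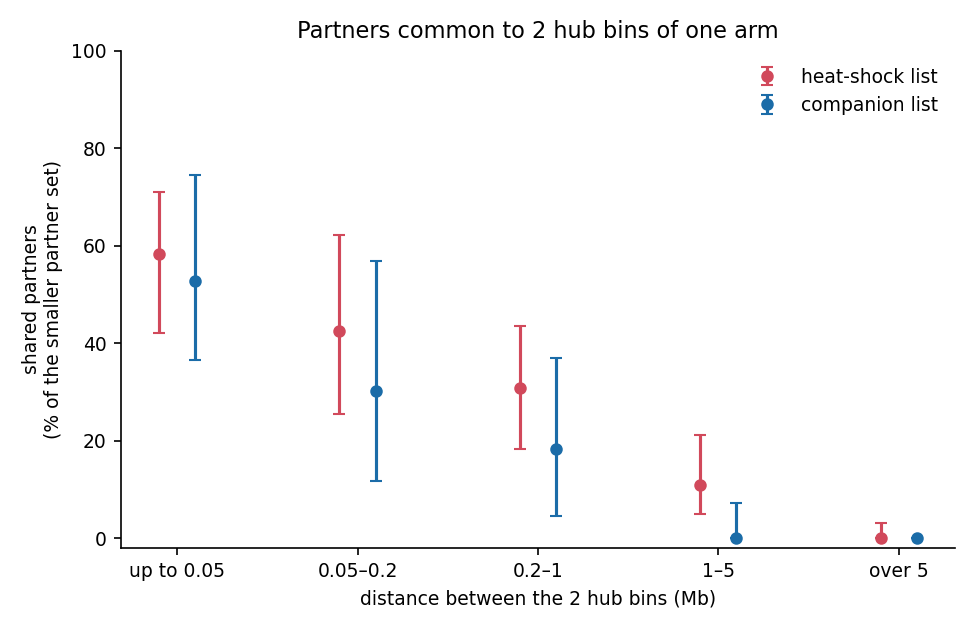
Partners common to 2 hub bins of one arm, in percent of the smaller partner set (y axis), against the distance between the hubs in Mb (x axis), as medians with bars from the lower to the upper quartile over hub pairs, in both lists. The medians fall from 58.4% (heat-shock) and 52.8% (companion) up to 0.05 Mb to 0% beyond 5 Mb.

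The largest numbers of common partners were found for these neighbours. Bins 3R:6970001-6980000 and 3R:7050001-7060000 had 91 in common, 25.1% of the partners of the first and 42.5% of the second, and 7 companion partners in common. Bins 3L:4870001-4880000 and 3L:4890001-4900000 had 85 heat-shock partners (62.5% and 49.1%) and 13 companion partners in common. The adjacent bins 2R:130001-140000 and 2R:140001-150000 had 80 (80% and 53.0%) and 49. Bins 3R:23560001-23570000 and 3R:23610001-23620000 had 78 (60.5% and 49.4%) and 23, and the adjacent bins 2L:17980001-17990000 and 2L:17990001-18000000 had 73 (64.6% and 79.3%) and 57.

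Close hubs could also have separate partners. Bin 2L:17830001-17840000, only 150 kb from 2L:17980001-17990000, had 120 partners and the other 113, of which 1 was common. The first had 33.3% of its partners at higher coordinates and the second 94.7%. Bins 3R:16830001-16840000 and 3R:16950001-16960000, with 116 and 51 partners, likewise had 1 in common. Bins 3L:24000001-24010000 and 3L:24160001-24170000, with 53 and 367, had 2. Of their companion partners these 3 pairs had 0, 0 and 1 in common.

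Runs differed in how far all their hubs agreed. The 4 hubs at 2R:18450001-18490000 had 45 partners common to all, of 143 that any of them had, and the median share between 2 of them was 79.2%. The 11 hubs at 2R:10001-180000 had 12 of 238 in common and a median of 74% between 2 of them, and the 7 at 2R:350001-570000 had 12 of 126 and 66%. The 3 hubs at 2R:970001-1020000 had 29 of 100, and those at 2R:670001-700000 had 27 of 98. The 8 hubs at 2L:5960001-6090000 had 4 of 218 in common and a median of 43.9%, and the 5 at 3R:23470001-23620000 had 10 of 336 and 43.4%. The lowest median was 24.7%, for the 3 hubs at 2L:4440001-4540000, with 12 of 228 in common.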

How the data were processed

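Each deposited list gives, per line, an arm, the starts and ends of 2 bins of 10 kb, and the authors' score, which is negative throughout and never above -2. It looks like a log p-value, but the sources used here do not give its base, test, background model or genome build. The submitters' processing notes list Bowtie 0.12.7. Whether reads of both heat-shock libraries were pooled before calling is not given. The last Release 6 gene lies past the last bin on all 5 arms, so no gene or sequence was matched to a bin.

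Partners were counted as different bins paired with a bin. Distance is between bin starts. In comparisons of partner sets the 2 bins themselves were left out. Shares have exact (Clopper-Pearson) and medians order-statistic 95% intervals. No test was run, since each list is single. Python 3.11.15, NumPy 2.4.6, SciPy 1.17.1 and matplotlib 3.10.9 were used, and the counting functions were tested on simulated lists.

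The members, comparisons and alternatives were chosen with earlier results of these data known. Named bins followed a rule: the 10 hubs with most partners, extremes of companion partners, distance and direction, the 5 strongest and 5 longest hub pairs, extremes of shared partners among neighbours, and runs of 3 or more hubs at most 50 kb apart. Bins named by stretch, by largest ratio, by fewer heat-shock than companion partners and by row of partners, and the contrast of runs with lone hubs, were chosen after their values were seen. Alternatives were other thresholds, stronger or shorter lists, other distances, and leaving out centromere ends.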

Additional observations from a re-analysis of the deposited data

How the results depend on the processing

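The alternatives gave 75 values, of which 24 fell inside the 95% interval of the value in the report (for counts, within 1.5 times of it) and 51 did not. Fewer pairs or another threshold change counts by construction; for other moves the cause was not tested. Leaving out the hubs in the first 2 Mb of 2R was added after the data were seen. No paired analysis was possible because the list covers both libraries together, and for the same reason leaving out each library in turn was not possible. Depth is unknown, so bins with no listed pair may still be in contact.

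The number of hubs was 111 at 100 partners, 169 in the strongest 50% of heat-shock pairs, 185 at companion length and 159 for pairs over 1 Mb apart. Median companion partners stayed between 25 and 28 except for pairs over 1 Mb apart, with 12. Hubs among as many richest companion bins numbered 246 (threshold 40), 32 (threshold 100), 55 (strongest 50%), 64 (companion length) and 43 (over 1 Mb). As shares of the hubs these are 55.4%, 28.8%, 32.5%, 34.6% and 27.0%, against 47.8%, lower in all but the first. The companion set held as many bins as there were hubs in each setting, so these shares do not compare directly. The median distance of hub pairs was 1.52 Mb (threshold 100), 1.63 Mb (strongest 50%), 1.58 Mb (companion length), 1.47 Mb (without centromere ends), 2.56 Mb (over 1 Mb) and 1.48 Mb (without the 2R hubs). Hubs with 75% of partners on one side numbered 171 (threshold 40), 17 (threshold 100), 46 (strongest 50%), 49 (companion length) and 41 (over 1 Mb), and 41 had 90%. As shares of the hubs the first 5 are 38.5%, 15.3%, 27.2%, 26.5% and 25.8%, against 32.8%. Pairs between hubs numbered 1983 (threshold 40), 18 (threshold 100), 53 (strongest 50%), 84 (companion length), 538 (without centromere ends), 172 (over 1 Mb) and 593 (without the 2R hubs). Shared partners of neighbours were 33.3% (strongest 50%), 34.5% (companion length), 32.8% (over 1 Mb), 48.7% (up to 100 kb), 38.0% (up to 500 kb) and 61.0% (adjacent bins counted as shared). Median spacing was 130 kb (threshold 40), 610 kb (threshold 100), 420 kb (strongest 50%), 390 kb (companion length) and 420 kb (over 1 Mb). Bins within 5 bins of a hub had a median of 2 (strongest 50%), 3 (companion length) and 4 (over 1 Mb) partners, against 6. Heat-shock hub pairs repeated in the companion list were 20.7% (threshold 40), 16.4% (threshold 100), 20.9% (strongest 50%; 20.85 before rounding), 20.4% (companion length), 17.1% (without centromere ends; 17.15 before rounding), 10.9% (over 1 Mb), 33.8% (within 1 bin) and 18.2% (without the 2R hubs).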

Other observations

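Bins that are not hubs themselves could be paired with many hubs. Of the 10800 other bins, 8267 were paired with at least 1 hub in the heat-shock list, 2060 (19.1%) with 5 or more and 302 (2.80%) with 10 or more. The 5 with most hub partners all lay at the centromere end of 2R. Bin 2R:500001-510000 was paired with 25 hubs among its 49 heat-shock partners, and with 14 hubs among its 31 companion partners. Bins 2R:1190001-1200000 and 2R:1220001-1230000 were each paired with 23 hubs, 2R:1020001-1030000 with 22 and 2R:710001-720000 with 21, and in the companion list with 19, 15, 20 and 16. The first 2 of these 5 had 49 partners each, just below the number that makes a hub. The other bins of the first 2 Mb of 2R had a median of 15 heat-shock partners and 13 companion partners (166 bins), against 6 and 3 over all used bins, so the background around these hubs was raised in both lists.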
